A study of Mus musculus with 4 samples.

Results

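The genes described here encode the E proteins Tcf3, Tcf4 and Tcf12, their inhibitors Id1, Id2 and Id3, the related factor Lyl1, the Ikaros family factors Ikzf1 and Ikzf2, and Bcl11a, 10 genes of the 18193 named on the array. They were taken as all probe sets that the platform annotation assigns to one of these symbols alone, 32 of 45037 probe sets. Expression was measured on 4 Affymetrix mouse arrays of sorted bone marrow cells, 1 array per group: Smo-deficient LSK, wild-type (WT) LSK, Smo-deficient MP and WT MP. LSK cells lack lineage markers and carry c-Kit and Sca-1, and they hold the stem cells and multipotent progenitors. MP cells, which carry c-Kit without Sca-1, are myeloid progenitors. Smo encodes the hedgehog signal transducer Smoothened.

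The Smo-deficient mice were labelled Smo flox/flox, Mx1Cre+ and the WT mice Smo flox/flox, Mx1Cre-, so the controls also carried the floxed alleles. Mx1-Cre is driven by an interferon-responsive promoter and acts in many tissues, not in blood cells alone. PolyI:C, which induces interferon, was injected 3 times at 20 ug/g into mice of both genotypes, whose marrow was collected after 6 weeks. Cells of 4 mice, males and females mixed, were pooled per genotype before LSK and MP cells were sorted, so each genotype is 1 pool. The strain labels read C57BL/6x130 for Smo-deficient LSK, C57BL/6x129 for WT LSK, C57BL/6x132 for Smo-deficient MP and C57BL/6x131 for WT MP, although LSK and MP cells of 1 genotype share their mice. Ages are not given in the sources used here. No group has a replicate, and precision is limited by the small number of arrays.

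The arrays fit their labels in Smo and in most of the population marker genes measured. On the brighter Smo probe sets, log2 intensity was 6.13 and 6.96 in Smo-deficient LSK against 10.81 and 10.02 in WT LSK, and 6.36 and 7.94 in Smo-deficient MP against 10.40 and 9.72 in WT MP. Of 7 measured genes listed as LSK markers, 6 were called higher in LSK (16.4% of all genes). All 8 myeloid progenitor genes were called lower in LSK (7.54% of all genes). Of the sort markers, Ly6a, the gene of Sca-1, had no probe set that the annotation assigns to it alone and was not read. Kit, higher in LSK by 0.22, was not called. The pools also differed in Y-linked genes, with Eif2s3y (probe set 1417210_at) higher in the Smo-deficient pool by 1.70 in LSK and 1.14 in MP, so genotype and the sex makeup of the pools cannot be told apart.

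E proteins are basic helix-loop-helix factors that bind DNA as dimers at the E-box, written CANNTG, and drive early lymphoid genes. Id proteins have the helix-loop-helix but no basic region, so a dimer of an Id protein with an E protein does not bind DNA. Lyl1 is a tissue-restricted partner of E proteins. Ikaros factors and Bcl11a are zinc finger proteins that recruit chromatin remodellers such as NuRD, and loss of Ikzf1, Bcl11a or Tcf3 in mice blocks B lymphocyte development.

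The promoters of Id2, Id3 and Lyl1 are shown because Id2 had the largest genotype difference among the members, Id3 is its relative with dim signal on every array, and Lyl1 was higher in LSK than MP on its only probe set. Sequences are from RefSeq, build GRCm38.p6, 5′ to 3′ on the gene's strand, and end before the outermost annotated start of the gene. Capitals mark each E-box.
Id2 (chr12:25096093-25096342, minus strand): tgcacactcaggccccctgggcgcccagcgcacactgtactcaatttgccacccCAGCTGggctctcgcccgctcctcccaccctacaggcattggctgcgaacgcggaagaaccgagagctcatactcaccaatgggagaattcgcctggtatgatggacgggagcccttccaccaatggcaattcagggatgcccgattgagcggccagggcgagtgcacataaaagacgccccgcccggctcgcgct
Id3 (chr4:136143572-136143821, plus strand): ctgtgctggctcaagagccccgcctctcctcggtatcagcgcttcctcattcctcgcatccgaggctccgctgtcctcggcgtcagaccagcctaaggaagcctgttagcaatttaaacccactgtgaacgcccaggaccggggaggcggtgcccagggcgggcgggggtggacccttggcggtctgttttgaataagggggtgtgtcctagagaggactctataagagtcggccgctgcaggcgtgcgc
Lyl1 (chr8:84701207-84701422, plus strand): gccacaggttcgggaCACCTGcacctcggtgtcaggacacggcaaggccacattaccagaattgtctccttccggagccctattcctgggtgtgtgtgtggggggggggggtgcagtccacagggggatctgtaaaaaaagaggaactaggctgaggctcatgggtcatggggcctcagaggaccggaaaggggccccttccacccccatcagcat

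The Id2 stretch holds 1 E-box, CAGCTG, and the Lyl1 stretch holds 1, CACCTG, while no CANNTG occurs in the 250 bases shown for Id3. CANNTG reads the same on both strands. RefSeq promoter windows of 300 bases (250 before and 50 after a start) were found for 7 of the 10 members, 10 windows in all, of which 7 hold CANNTG. A common E protein site, CAGGTG on either strand, is also counted within CANNTG and occurs in 1 window, that of Lyl1. Of all 32851 windows in the table, 72.3% hold CANNTG and 20.2% hold CAGGTG on either strand. A match describes the letters of this window and does not show that a factor binds there.

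Values below are log2 intensities, and differences are differences of log2 intensity, so that 1 is 2-fold. Each gene was read on its brightest probe set by the mean of the 4 arrays, and the gene's other probe sets are given beside it. Probe sets with a mean log2 intensity of 7.23 or less, the median of all probe sets, were left out of tests and counts, and on that rule 9 of the 10 members were kept and Id3 was not. For LSK minus MP, limma with the pool as a block gave p-values adjusted over all 22518 probe sets kept, and an adjusted p under 0.05 was called. For Smo-deficient minus WT there is 1 array against 1 and no test, and a difference of 2-fold was counted. In sorted bulk cells, fewer cells of a type and less RNA per cell cannot be told apart.

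**Figure D1:**
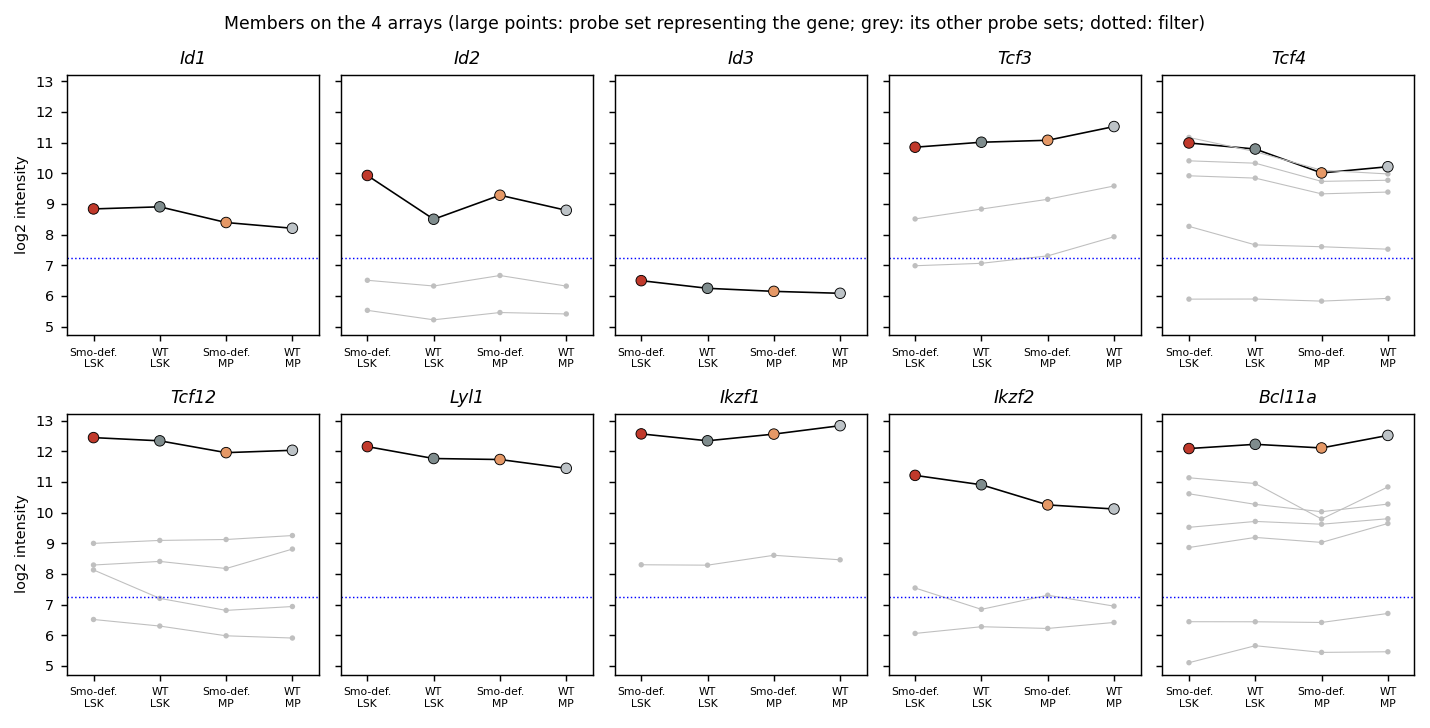
Log2 intensity (vertical axis) of the 10 members on the 4 arrays. Large points are the probe set representing each gene, small grey points its other probe sets, and the dotted line is the filter at 7.23. Id2 was 9.93 in Smo-deficient LSK against 8.50 in WT LSK, while Ikzf2 and Tcf4 were higher on both LSK arrays than on both MP arrays.

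Id2 was the member that differed most between genotypes. Id2 is required in mice for natural killer and innate lymphoid cells and opposes E protein activity. On probe set 1435176_a_at its log2 intensity was 9.93 in Smo-deficient LSK against 8.50 in WT LSK, and 9.28 in Smo-deficient MP against 8.79 in WT MP. Both Smo-deficient arrays lay above both WT arrays. The difference was 1.43 in LSK, 2.69-fold, which ranked 19 among the 22518 probe sets ordered from most raised, and 0.49 in MP, 1.41-fold, at rank 829. Its other probe sets, 1422537_a_at and 1453596_at, lay below the filter on all 4 arrays, at 6.32 to 6.67 and 5.22 to 5.53, and differed in LSK by 0.19 and 0.31. The 2-fold difference thus rests on 1 probe set.

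Between populations Id2 had no shared direction. LSK minus MP was 0.64 in the Smo-deficient pool and -0.29 in the WT pool. The mean of both pools, 0.18 ± 0.21 (SE), was not called (limma adjusted p = 0.593). Without the Smo-deficient LSK array the LSK minus MP value was -0.54.

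Id1 differed between the populations and hardly between genotypes. Id1, which restrains differentiation of mouse stem cells, had 8.84 in Smo-deficient LSK and 8.91 in WT LSK, against 8.39 in Smo-deficient MP and 8.21 in WT MP. Both LSK arrays lay above both MP arrays. LSK exceeded MP by 0.44 in the Smo-deficient pool and 0.70 in the WT pool, a mean of 0.57 ± 0.12 (SE, limma adjusted p = 0.0178), which was called. The genotype difference was -0.07 in LSK and 0.19 in MP.

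Id3, which acts with Id2 in limiting E proteins in lymphocytes, was dim throughout. Its only probe set, 1416630_at, read 6.50 in Smo-deficient LSK, 6.25 in WT LSK, 6.15 in Smo-deficient MP and 6.08 in WT MP, all under the filter. It was not tested, and a difference in Id3 could have gone undetected. The gap between the genotypes on this probe set was 0.25 in LSK and 0.06 in MP.

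The E proteins did not share a direction between LSK and MP. Of the probe sets above the filter value on all 4 arrays, the LSK minus MP difference was above 0 on all 5 of Tcf4 and 1 of 3 of Tcf12, and below 0 on both of Tcf3. Tcf4, needed for plasmacytoid dendritic cells, read 10.99 in Smo-deficient LSK and 10.79 in WT LSK on 1416723_at, against 10.01 in Smo-deficient MP and 10.21 in WT MP. Both LSK values lay above both MP values. The mean LSK minus MP difference was 0.78 ± 0.13 (SE, limma adjusted p = 0.00864), 1.71-fold. All 5 Tcf4 probe sets past the filter were higher in LSK, by 0.40 to 0.90, and 4 of them were called.

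Tcf4 had no genotype difference of 2-fold on any probe set. Its 5 probe sets past the filter were higher in Smo-deficient LSK by 0.08 to 0.60 and ranged from -0.20 to 0.12 in MP. The largest of these, 0.60 on 1434149_at, came from values of 8.27 in Smo-deficient LSK and 7.66 in WT LSK. On 1434148_at the difference in LSK was 0.46.

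Tcf12, an E protein used in T cell development, was measured on 5 probe sets that did not agree. The brightest, 1427670_a_at, read 12.45 in Smo-deficient LSK and 12.34 in WT LSK, against 11.96 in Smo-deficient MP and 12.03 in WT MP. LSK lay above MP in both pools, with a mean difference of 0.40 ± 0.09 (SE, limma adjusted p = 0.0201) that was called. Of the 3 others past the filter none was called, with mean differences of -0.14 on 1421908_a_at, -0.14 on 1446294_at and 0.79 on 1439209_at, which passed the filter only through 1 LSK array. Over the mean of its probe sets Tcf12 was not called, with 0.23 and a limma adjusted p of 0.227, where the 7 alternatives that keep all arrays gave 0.0117 to 0.227. That mean includes 1439209_at, so no direction is read from it.

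One Tcf12 probe set came close to 2-fold between genotypes. On 1439209_at the values were 8.13 in Smo-deficient LSK against 7.20 in WT LSK, and 6.81 in Smo-deficient MP against 6.94 in WT MP. The difference of 0.93 in LSK was carried by the Smo-deficient LSK array, the only one of the 4 above the filter. The other Tcf12 probe sets past the filter differed by -0.12 to 0.11 in LSK. In MP the Tcf12 probe sets past the filter differed by -0.635 to -0.077. The lowest was 1446294_at, with 8.17 in Smo-deficient MP against 8.81 in WT MP, at rank 431 of 22518 from most lowered.

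Tcf3, the E protein gene also named Tcfe2a, was the member with the clearest tilt towards MP. On 1426297_at it read 10.85 in Smo-deficient LSK and 11.01 in WT LSK, against 11.08 in Smo-deficient MP and 11.52 in WT MP. Both MP arrays lay above both LSK arrays, but the mean LSK minus MP difference of -0.37 ± 0.11 (SE, limma adjusted p = 0.0620) was not called. Probe set 1427764_a_at, at -0.70 (limma adjusted p = 0.00707), was called lower in LSK. Probe set 1452542_x_at read 6.98 in Smo-deficient LSK and 7.06 in WT LSK, against 7.31 in Smo-deficient MP and 7.93 in WT MP, so it passed the filter only through the MP arrays, and its difference of -0.59 is given without a call. On 1426297_at a call was gained after quantile normalization, with -0.43 and an adjusted p of 0.0190, and after cyclic loess normalization, with -0.40 and 0.0241, and over the 6 alternatives that keep all arrays and this probe set the adjusted p ran from 0.0190 to 0.305. Over the mean of the Tcf3 probe sets the limma adjusted p was 0.00808, but that mean includes 1452542_x_at, so no call is read from it.

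Tcf3 was also lower in the Smo-deficient pool on each of its 3 probe sets. In LSK the differences were -0.32 to -0.08, and in MP they were -0.62 to -0.43. The largest, -0.62, was that of 1452542_x_at in MP, at rank 462 of 22518 from most lowered. None reached 2-fold.

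Lyl1, which acts in stem cells and lymphoid progenitors and is a relative of Tal1, has 1 probe set, 1419120_at. It read 12.15 in Smo-deficient LSK and 11.76 in WT LSK, against 11.73 in Smo-deficient MP and 11.44 in WT MP. Each LSK array lay above the MP array of its own pool, although Smo-deficient MP came close to WT LSK. The mean LSK minus MP difference was 0.37 ± 0.09 (SE, limma adjusted p = 0.0291), which was called. Lyl1 was higher in the Smo-deficient pool by 0.39 in LSK and 0.29 in MP.

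Ikzf2 had the largest difference between LSK and MP of the representing probe sets. Ikzf2, also called Helios, is expressed in stem cells and in regulatory T cells. On 1437542_at it read 11.21 in Smo-deficient LSK and 10.91 in WT LSK, against 10.25 in Smo-deficient MP and 10.12 in WT MP. The LSK arrays stood well apart from the MP arrays. LSK exceeded MP by 0.96 in the Smo-deficient pool and 0.79 in the WT pool, a mean of 0.88 ± 0.11 (SE, limma adjusted p = 0.00295), 1.84-fold. The dimmer probe sets 1456956_at and 1421643_at had mean LSK minus MP differences of 0.07 and -0.15, so the difference of 0.88 rests on 1 probe set.

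Ikzf2 was slightly higher in the Smo-deficient pool, by 0.31 in LSK and 0.13 in MP. Its other probe sets lay below the filter. Of these, 1456956_at differed by 0.70 in LSK, from 7.54 in Smo-deficient LSK and 6.84 in WT LSK, and 1421643_at by -0.22.

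Ikzf1 differed little in either comparison. Ikzf1, also called Ikaros, is needed for lymphoid progenitors and primes lymphoid genes in LSK cells of mice. On 1436312_at it read 12.57 in Smo-deficient LSK, 12.34 in WT LSK, 12.56 in Smo-deficient MP and 12.84 in WT MP. On this probe set the values of LSK and MP were mixed, and the mean LSK minus MP difference of -0.24 ± 0.12 (SE, limma adjusted p = 0.199) was not called. On 1421303_at the LSK arrays, at 8.30 and 8.28, lay below the MP arrays, at 8.61 and 8.46. Its mean difference of -0.24 (limma adjusted p = 0.171) was not called either. Between genotypes the difference was 0.22 in LSK and -0.27 in MP on 1436312_at, and 0.01 and 0.15 on 1421303_at.

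Bcl11a, a repressor needed for B cells and a silencer of fetal-type globin genes, had 7 probe sets that went different ways. On the brightest, 1419406_a_at, it read 12.09 in Smo-deficient LSK, 12.23 in WT LSK, 12.11 in Smo-deficient MP and 12.52 in WT MP. The WT MP array was the highest and the other 3 were close together. The mean LSK minus MP difference was -0.16 ± 0.09 (SE, limma adjusted p = 0.285), and none of the 5 probe sets past the filter was called, with means from -0.31 to 0.73.

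All 5 Bcl11a probe sets past the filter were lower in Smo-deficient MP than in WT MP, with differences from -1.05 to -0.18. On 1456632_at the values were 9.79 in Smo-deficient MP against 10.84 in WT MP, and 11.14 in Smo-deficient LSK against 10.95 in WT LSK. The difference of -1.05 in MP ranked 65 of 22518 from most lowered and passed 2-fold, but was -0.94 after quantile and -0.92 after cyclic loess normalization, while the brightest probe set differed by -0.41. In LSK the 5 probe sets ranged from -0.33 to 0.34.

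**Figure D2:**
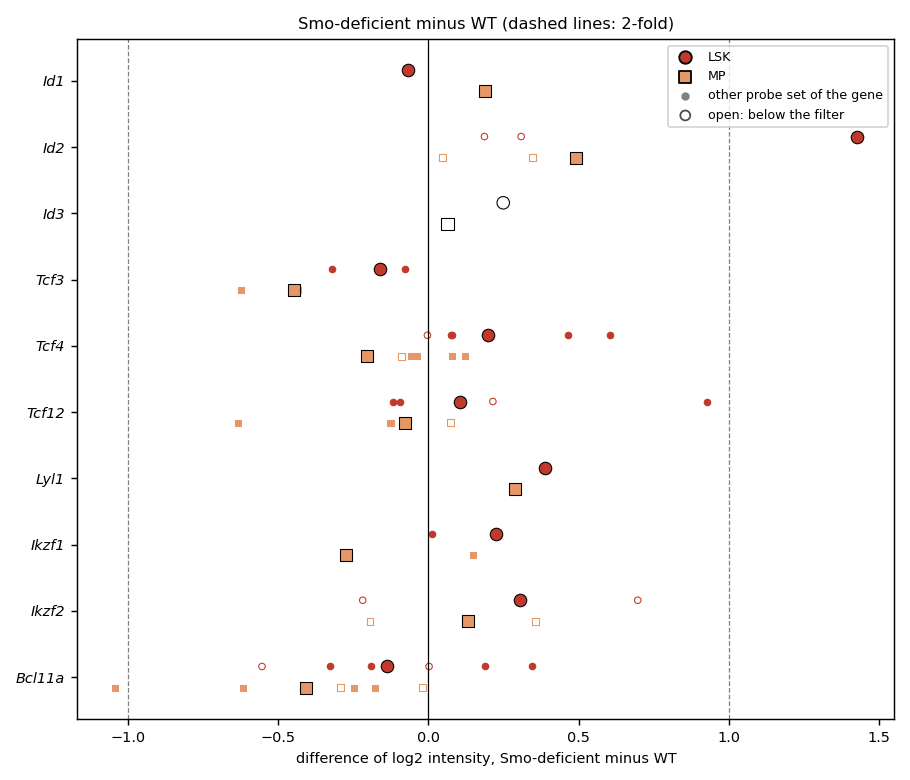
Smo-deficient minus WT difference of log2 intensity (horizontal axis) of each member, circles for LSK and squares for MP, with large symbols for the representing probe set, small ones for other probe sets and open ones below the filter. Id2 in LSK, at 1.43, is the only representing probe set beyond the dashed 2-fold lines, and Bcl11a has 1 other probe set at -1.05 in MP.

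Counted over representing probe sets, 1 of the 9 members past the filter, Id2, passed 2-fold upward in Smo-deficient LSK, and 0 were 2-fold lower. Over all 11904 genes past the filter, 0.949% were 2-fold there, 0.689% higher and 0.26% lower. In MP 0 of the 9 were 2-fold in either direction, where the background was 0.563%, with 0.269% higher and 0.294% lower. Of all 10 members, 7 were higher in Smo-deficient LSK than in WT LSK and 5 were higher in Smo-deficient MP than in WT MP. The median difference of the 10 was 0.21 in LSK and -0.01 in MP, against -0.02 and -0.05 over the 11904 genes, of which 46.8% were above 0 in LSK and 40.3% in MP. In MP the direction of this median depends on the scaling, with 6 members higher and a median of 0.05 after quantile or cyclic loess normalization.

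In LSK minus MP, 5 of the 9 members tested were called higher in LSK with limma, Id1, Tcf4, Tcf12, Lyl1 and Ikzf2, where 16.4% of the 11904 genes were called higher. None was called lower, where the background was 7.54% (23.9% in either direction), and 1, Tcf3, was lower at an unadjusted p under 0.05. The median LSK minus MP difference of all 10 members was 0.31, and that of the 11904 genes was 0.00. The calls depend on treating the pools as blocks. Without the block only Ikzf2 was called (limma adjusted p = 0.0465), and Id1 (0.0649), Tcf4 (0.0542), Tcf12 (0.111) and Lyl1 (0.289) were not. Over the 7 alternatives that keep all arrays, 1 of them the mean over a gene's probe sets, the limma adjusted p ran from 0.000381 to 0.0465 for Ikzf2, 0.00567 to 0.0649 for Id1, 0.00381 to 0.0542 for Tcf4, 0.0117 to 0.227 for Tcf12 and 0.0127 to 0.289 for Lyl1. With any of the 4 arrays left out, also without the block, no member was called with limma, and 3 to 5 were higher and 0 to 2 lower at an unadjusted p under 0.05.

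**Figure D3:**
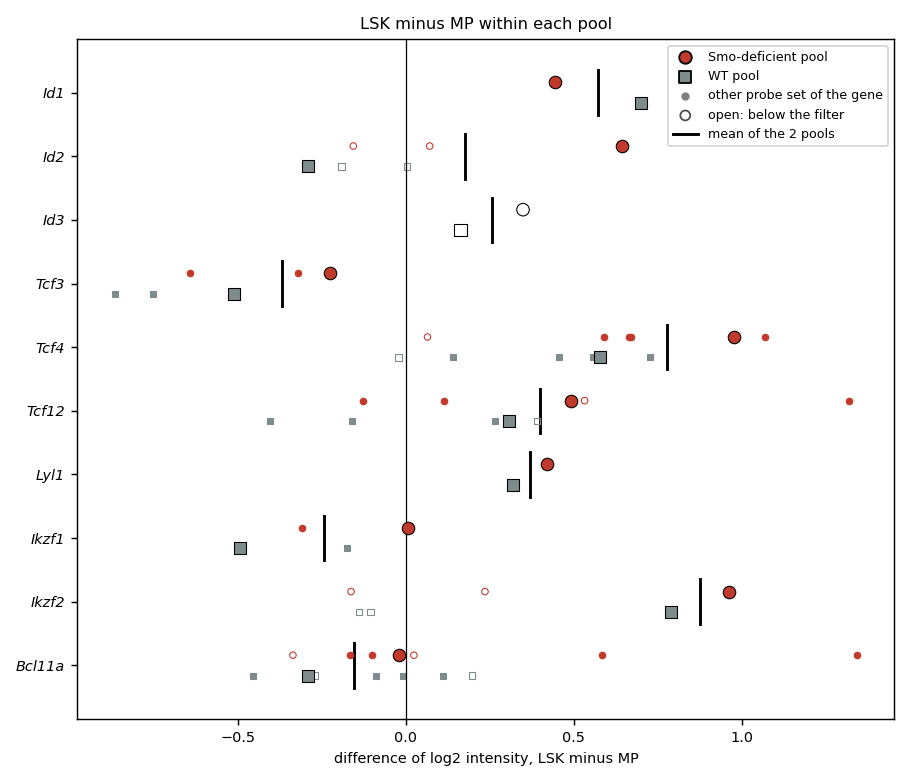
LSK minus MP difference of log2 intensity (horizontal axis) of each member within the Smo-deficient pool (circles) and the WT pool (squares), with a bar at the mean of both for the representing probe set. Small symbols are other probe sets and open ones lie below the filter. Id1, Tcf4, Tcf12, Lyl1 and Ikzf2 lay above 0 in both pools, and Id2 had opposite signs at 0.64 and -0.29.

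Other members of these families were mostly dim or level between the groups. Of 10 further Id and class II helix-loop-helix genes, 3 were past the filter. Of these, limma called Tcf15 higher in LSK, at 0.56 (adjusted p = 0.0151), and Bhlha15 lower, at -0.43 (adjusted p = 0.0478). Of all genes, 16.4% were called higher and 7.54% lower. Tal1, the relative of Lyl1 that also binds E proteins, had an LSK minus MP difference of -0.04, not called, and a genotype difference of -0.44 in MP. Id4 read 5.76 to 6.21 on the 4 arrays, below the filter. Of the 4 other Ikaros and Bcl11 family genes 3 were past the filter, and limma called 0 of them in either direction, with 1 higher and 0 lower at an unadjusted p under 0.05. None of these 14 genes had a 2-fold genotype difference past the filter. Tcf15, Bhlha15, Tal1, Id4 and the co-factors named next were chosen after their values were seen.

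Co-factors of these proteins differed by less than 2-fold in both comparisons. Among 12 co-factors of E protein and Lyl1 complexes, 10 were past the filter, 4 were called higher in LSK (16.4% of all genes) and 0 lower (7.54% of all genes), with 2 lower at an unadjusted p under 0.05. Lmo2, the bridging protein of the Lyl1 and Tal1 complexes, was higher in LSK by 0.50 (limma adjusted p = 0.00729). Of 17 NuRD, Sin3 and CtBP genes, all past the filter, 5 were called higher and 1 lower in LSK, the count lower being near the share of all genes, led by the remodeller gene Chd3 at 0.86 (limma adjusted p = 0.00400). Neither list had a gene with a 2-fold genotype difference, and their genotype medians were 0.13 and -0.04 in LSK and -0.12 and -0.15 in MP.

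Genes known as E protein targets, mostly of early lymphoid cells and with cell cycle inhibitors among them, were mostly higher in the Smo-deficient pool. All 17 measured were higher in Smo-deficient LSK and 13 of 17 in Smo-deficient MP, with median differences of 0.60 and 0.37, where 46.8% of all genes were higher in LSK and 40.3% in MP. This list was chosen with the lymphoid result of these arrays known, so its direction is not independent evidence. Past the filter, 3 of 12 were 2-fold higher in Smo-deficient LSK, against 0.689% of all genes. Dntt, the polymerase that extends antigen receptor junctions without a template, had differences of 2.15 in LSK and 1.17 in MP, the interleukin receptor gene Il7r had 1.21 and 0.63, and the zinc finger repressor gene Gfi1 had 1.18 and 0.71. In LSK minus MP 5 of the 12 were called higher and 0 lower, against 16.4% and 7.54% of all genes, the same counts as at an unadjusted p under 0.05, with Dntt at 2.63 and the cell cycle inhibitor gene Cdkn1a at 1.04.

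Parts of the BMP and TGF-beta pathways, of which BMP signalling induces Id genes in many cells, were mostly higher in LSK. Of 12 genes past the filter 10 were called higher in LSK and 0 lower, against 16.4% and 7.54% of all genes, with 0 lower also at an unadjusted p under 0.05. Tgfbr2, a receptor for TGF-beta, was higher by 1.09 (limma adjusted p = 0.00170) and Smad5, a signal transducer of BMP receptors, by 1.01 (limma adjusted p = 0.00171). Between genotypes all 14 measured genes were higher in Smo-deficient LSK, by 0.03 to 0.86, and 12 of 14 were higher in Smo-deficient MP, with medians of 0.29 and 0.26, where 46.8% and 40.3% of all genes were higher. None was 2-fold in either population. Like the members and the other lists, this list was chosen with earlier results of these data known, so its counts are not independent evidence.

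**Figure D4:**
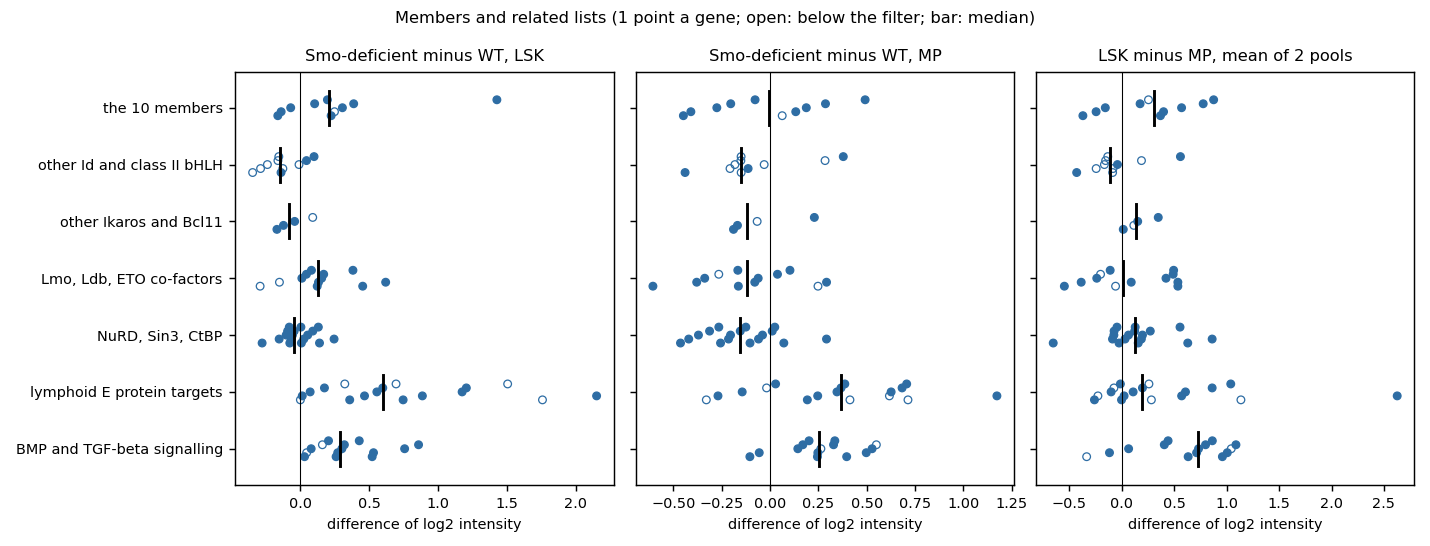
Difference of log2 intensity (horizontal axes) of each gene in the members and 6 related lists, for Smo-deficient minus WT in LSK, the same in MP, and LSK minus MP. Points are genes, open where below the filter, and bars are medians over the measured genes. The lymphoid E protein targets have medians of 0.60 in LSK and 0.37 in MP, and the BMP and TGF-beta genes one of 0.72 in LSK minus MP.

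Marker genes of other cell types moved with genotype in the same LSK arrays as Id2. All 9 neutrophil markers were higher in Smo-deficient LSK, with a mean log2 intensity of 13.01 on that array against 12.21 in WT LSK, and 8 of 9 macrophage markers were higher, with means of 8.33 and 7.82. All 9 B lineage markers were higher as well, with means of 8.41 in Smo-deficient LSK against 7.73 in WT LSK, and 7 of these 9 are also among the E protein targets above, so the counts of these lists are not separate observations. Ebf1, a defining B lineage factor, lay below the filter on all 4 arrays but had the largest difference of the 9, with 6.90 in Smo-deficient LSK against 5.39 in WT LSK. Of 7 plasmacytoid dendritic cell markers, 5 were higher, with means of 8.07 and 7.76, and Spib, a transcription factor of these cells and of B cells, was 2-fold higher, at 8.25 in Smo-deficient LSK against 6.97 in WT LSK. Siglech, which defines plasmacytoid dendritic cells, read 6.77 to 6.94 on all 4 arrays, below the filter. Markers of T, NK and innate lymphoid cells, some of which express Id2, had means of 7.40 in Smo-deficient LSK against 7.43 in WT LSK, with 4 of 8 higher. Of these, Cd3g, Cd3d, Cd2 and Ncr1 lay below the filter, and Nkg7, Cd3e, Il2rb and Gzmb lay above it, with genotype differences in LSK of 0.09, -0.03, 0.04 and -0.39. All 5 mature erythroid markers were higher, with means of 11.04 in Smo-deficient LSK against 10.65 in WT LSK, and 3 of 5 mast cell and basophil markers, with means of 9.48 and 9.38. Of 8 stroma and endothelium markers 1 was higher, with means of 6.90 in Smo-deficient LSK against 7.23 in WT LSK, and the collagen gene Col1a2 was lower, at 8.50 in Smo-deficient LSK against 10.25 in WT LSK. Genes listed for the sorted populations differed too. Of 7 LSK markers 6 were higher in Smo-deficient LSK, with means of 11.75 against 11.30 in WT LSK. Flt3 and Procr were 2-fold higher, at 1.21 and 1.11, and Slamf1 was lower, at -0.51. Of 8 myeloid progenitor genes 5 were higher, with means of 12.11 and 12.03. The others, Gata1, Epor and Klf1, differed by -0.79, -0.76 and -0.69. In MP the means were 12.79 and 12.48 for neutrophil markers and 8.04 and 7.82 for B lineage markers in Smo-deficient and WT cells. The part of these cells in the Id2 difference was not tested.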

How the data were processed

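Total RNA of 4 sorted populations (20 ng each, 2-cycle amplification) was hybridised to 1 Affymetrix mouse array per population. The authors deposited 1 table of intensity values made with RMA, per the submitters' processing notes (the sources used here give no version). This method corrects background, brings the arrays' probe distributions together, which can remove a change shared by most genes, and summarises probes. The deposited values do not share 1 distribution, with 75th percentiles of 543.1 to 609.7, and quantile normalization of them changed counts. The deposited intensity values, 12.3 to 44290.5, were read as linear and log2 was taken without a pseudocount. Array medians were 149.1 to 150.3. Of 45101 probe sets, 64 controls were left out, 34945 had 1 gene in the platform annotation, 932 several and 9160 none. The 22518 probe sets above the 50th percentile of mean log2 intensity, with 1 gene, several or none, were tested. Among them were the representing probe sets of 11904 genes.

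LSK was compared with MP with limma 3.58.1 in R 4.3.3 (lmFit, eBayes with trend, two-sided, Benjamini-Hochberg), with the pool as a block: 2 pairs and 1 residual degree of freedom before moderation. The block is the genotype, so p-values reflect the gap between the LSK minus MP values of the 2 genotypes, not the spread between mice. The pairing comes from the design text, since both populations of a genotype were sorted from the same pooled marrow. The script was checked on simulated data. Named genes were the members with all their probe sets, and from each related list those called and 2-fold in LSK minus MP or 2-fold by genotype. Genes named from the related lists and from the cell type marker lists do not all meet this rule, and some markers that meet it are not named. The members and lists were chosen with earlier results of these data known. Alternatives were quantile and cyclic loess normalization, an offset of 50, no filter, no block, no trend, means over probe sets, 1.5-fold and 3-fold thresholds, and leaving out each array. Figures were drawn with matplotlib 3.10.9 in Python 3.11.15.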

Additional observations from a re-analysis of the deposited data

Results flagged for a closer look

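The genotype difference had opposite signs in LSK and MP for 9 probe sets of 5 members past the filter. With 1 array per group these differences between populations were not tested, and any pair of unequal signs is listed, however small. The LSK difference minus the MP difference was 1.23 for Bcl11a on 1456632_at (0.19 in LSK, -1.05 in MP), 0.59 for Bcl11a on 1457072_at, 1.05 for Tcf12 on 1439209_at (0.93 in LSK, -0.13 in MP) and 0.18 for Tcf12 on 1427670_a_at. For Ikzf1 it was 0.50 on 1436312_at (0.22 in LSK, -0.27 in MP). For Tcf4 it was 0.40 on 1416723_at, 0.11 on 1416724_x_at and 0.13 on 1424089_a_at. For Id1 it was -0.26 on 1425895_a_at. The opposite signs depend on the scaling for Tcf12 on 1427670_a_at, whose MP difference was 0.03 after quantile and 0.04 after cyclic loess normalization, for Tcf4 on 1416724_x_at, at 0.03 and 0.07, and for Tcf4 on 1424089_a_at, at 0.04 after cyclic loess normalization. They were kept under both for the other 6 probe sets.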

How the results depend on the processing

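The count of 5 members called higher in LSK than MP was 5 under an offset of 50 and without the filter. It was 6, Tcf3 added as lower, under quantile and cyclic loess normalization, and 4 higher with Tcf3 lower over means of probe sets. That Tcf3 mean includes 1452542_x_at, which passed the filter only through the MP arrays. The count was 3 without the trend, Tcf12 and Lyl1 lost, with 5 higher at an unadjusted p under 0.05. With no replicate block (the pool left out of the model) it was 1, with 4 higher at an unadjusted p under 0.05. Leaving out each array, also without the block, gave 0 members with limma in each case, with 3 to 5 higher and 0 to 2 lower at an unadjusted p under 0.05. Over all probe sets 5013 were called, 67.7% of them higher in LSK, but 53.7% of 5556 after quantile normalization. Without the block 1058 were called, and 398 without Smo-deficient LSK, 474 without WT MP and up to 1156 without Smo-deficient MP. LSK minus MP of Bcl11a turned to 0.091 over means of probe sets and to 0.0493 without WT MP, from a lowest value of -0.36 with an array left out. That of Id2 ran from -0.54 without Smo-deficient LSK to 0.89 without WT LSK, and was -0.0697 without WT MP. The cause of these changes was not tested. Replicate numbers are 1 in every group, so the pool is the only block.

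Id2 in LSK stayed between 1.31 and 1.43 over 4 alternatives and was 2-fold in each, but 0 members reached 3-fold. Of these 4, the mean over probe sets repeats the main value, since Id2 has 1 probe set past the filter. At 1.5-fold Id2 was still the only member in LSK and none was in MP, counted on representing probe sets. Among other probe sets past the filter, Tcf4 on 1434149_at (1.52-fold higher) and Tcf12 on 1439209_at (1.90-fold higher) passed 1.5-fold in LSK. In MP those lower by more than 1.5-fold were Bcl11a on 1456632_at (2.06-fold) and 1426552_a_at (1.53-fold), Tcf12 on 1446294_at (1.55-fold) and Tcf3 on 1452542_x_at (1.54-fold). Of 72 genotype differences of members under alternatives, all moved by less than the spread of such differences at like level, though Tcf12 in MP ran from -0.24 to 0.04. The mean over probe sets cannot move Id1, Id2, Lyl1 or Ikzf2, each with 1 probe set past the filter. Probe sets 2-fold by genotype numbered 185 in LSK, 281 without the filter, 888 at 1.5-fold and 23 at 3-fold. In MP they numbered 144, 91 with the offset of 50, 1123 at 1.5-fold and 21 at 3-fold, and the share higher was 43.8%, but 57.7% after quantile and 64.6% after cyclic loess normalization. Dim signal limits Id3 and the further probe sets of Id2 and Ikzf2.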
